A study of Mus musculus with 2 samples.

Results

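The sterol and fatty acid synthesis genes described here are 32 genes chosen by symbol from the feature list, out of 31055 genes counted. They comprise 5 genes of SREBP control, 18 genes of sterol synthesis, 3 genes of sterol movement and 6 genes of fatty acid synthesis, and all 32 were found in both count matrices. They were measured by droplet single-cell RNA sequencing of medulloblastoma, a tumour of the cerebellum, from mice carrying Math1-Cre and floxed SmoM2. Math1 is the older name of Atoh1, whose promoter is active in granule neuron progenitors, and SmoM2 is an activated Smoothened, the signal transducer of the Sonic hedgehog pathway, so both libraries share the same driver, whose expression starts in that lineage. One library was made from tumours given standard proton beams and the other from tumours given FLASH proton beams, in which the whole dose arrives within a very short pulse. For both libraries the dose reads 5 Gy in the labels of the samples and 10 Gy in the series design, and no unirradiated library was analysed here. The sources used here give neither the number or age of the mice nor the time from irradiation to collection.

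SREBP2, encoded by Srebf2, and SREBP1, encoded by Srebf1, are membrane-bound transcription factors. When membranes are rich in sterol, Scap and the Insig proteins hold them in the endoplasmic reticulum, and when sterol falls they are carried to the Golgi, cleaved and released to switch on lipid synthesis genes. SREBP2 acts mainly on sterol synthesis and SREBP1c on fatty acid synthesis. Brain cholesterol is made locally, in large amounts by myelinating oligodendrocytes, and sterols also bind and activate Smoothened.

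After filtering, 7888 cells of the standard library and 9506 cells of the FLASH library remained, with a median of 5590.5 and 5212 unique molecular identifiers (UMIs, one per captured transcript) per cell. The summed UMIs were 45413865 and 51489748. Cells were clustered without the 32 genes and without 32 further genes of the pathway, and clusters were named from marker lists. The tumour lineage held 5538 cells in the standard and 7049 in the FLASH library, of which 3397 and 4425 were progenitor-like and 2141 and 2624 differentiating neuron-like. As the marker lists gave the names, marker sums describe the classes and are no check on the names. The 12 granule neuron markers summed to 8184 UMIs per 1000000 UMIs (CPM) in neuron-like against 1436 CPM in progenitor-like cells of the standard library, and to 8269 against 1444 CPM in the FLASH library. The oligodendrocyte lineage held 107 and 154 cells, the myeloid cells 304 and 311, and endothelial-like cells 30 and 47. Another 23.3% of standard and 19.4% of FLASH cells stayed unnamed, all in 4 clusters whose depth was under 0.5 of the median of their library. Progenitor-like cluster 3 was led by the muscle genes Mylpf and Tnnc2, and without it the sterol median of the first contrast below stayed at 0.60. Of the cell barcodes kept, 21 occurred in both libraries. No test was made between the groups, each being 1 library. Intervals are 95% and cover counting error only, and cells were not treated as replicates. A member is called higher or lower where it has at least 100 UMIs in the classes compared and differs by at least 1.5-fold, for contrasts between cell classes in both libraries. Reads were counted at the 3′ end of transcripts, so levels are compared between cells for 1 gene and not between genes.

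The sterol genes are shown first at the sequence level because they share a regulator. RefSeq promoter windows (GRCm38.p6) matched 25 of the 32 members, and the 250 bases before each start were searched on both strands. CCAAT, the core of the NF-Y site, lay in the window of 14 of 15 sterol synthesis genes (93.3%) against 37.5% of 27025 genes. GGGCGG, the core of the Sp1 site, lay in 14 of 15 against 35.4%. NF-Y and Sp1 are known partners of SREBP at its target promoters. The sterol regulatory element spelled TCACNCCAC was found in 1 sterol synthesis gene, Hmgcs1, against 1.22% of all genes. Of the 4 fatty acid synthesis genes with a window, 1 held CCAAT, and that was Fasn, and 1 held GGGCGG. The motifs were not particular to sterol synthesis genes, as CCAAT lay in 4 and GGGCGG in 5 of the 5 SREBP control genes. Such matches describe letters in these windows and not bound sites, and some genes have several windows. The windows of Hmgcs1 (chr13:119690101-119690350, plus strand), Mvd (chr8:122443423-122443672, minus strand) and Fasn (chr11:120824548-120824797, minus strand) are printed 5′ to 3′ in the direction of the gene. They are shown because Hmgcs1 and Mvd are among the genes that differ most between the cell classes below and Fasn is the fatty acid gene that varies most like them. Capitals mark CCAAT, its reverse complement ATTGG and, in Hmgcs1, the TCACNCCAC match, which begins 137 bases before the start.
Hmgcs1: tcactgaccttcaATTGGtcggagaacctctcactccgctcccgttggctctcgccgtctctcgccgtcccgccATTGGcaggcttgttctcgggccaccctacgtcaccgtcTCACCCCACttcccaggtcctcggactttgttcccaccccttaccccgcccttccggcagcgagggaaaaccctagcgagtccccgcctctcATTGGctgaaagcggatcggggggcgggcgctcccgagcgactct
Mvd: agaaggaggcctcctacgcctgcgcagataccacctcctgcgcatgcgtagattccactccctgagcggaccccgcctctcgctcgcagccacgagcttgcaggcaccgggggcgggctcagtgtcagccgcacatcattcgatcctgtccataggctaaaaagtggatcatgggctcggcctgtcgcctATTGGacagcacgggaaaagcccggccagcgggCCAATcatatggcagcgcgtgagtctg
Fasn: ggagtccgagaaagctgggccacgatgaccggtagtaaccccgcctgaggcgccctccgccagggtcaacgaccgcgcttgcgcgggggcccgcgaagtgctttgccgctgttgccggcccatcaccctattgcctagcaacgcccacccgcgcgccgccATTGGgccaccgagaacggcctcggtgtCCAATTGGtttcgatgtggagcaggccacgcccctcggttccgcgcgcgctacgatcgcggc
All 3 windows carry CCAAT in at least 1 orientation, with 3 matches on the opposite strand in Hmgcs1, 1 on each strand in Mvd, and 3 in Fasn, 2 of which overlap.

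Differentiating neuron-like cells held more sterol synthesis RNA per UMI than progenitor-like cells, in both libraries. All 18 sterol synthesis genes had a ratio above 0 on the log2 scale in both libraries, with a median of 0.60 (0.58 in the standard and 0.62 in the FLASH library) against a median of 0.042 over 11900 genes. Of the 18, 8 were called higher and 0 lower, where 16.8% of all genes were called higher and 16% lower. The 8 spanned the pathway: Hmgcs1, Pmvk and Mvd of the mevalonate steps, Fdft1 and Lss of squalene and lanosterol formation, and Cyp51, Tm7sf2 and Nsdhl of the steps after lanosterol. The 6 fatty acid synthesis genes had a median of 0.17 and none was called.

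Hmgcs1, the cytosolic enzyme that makes HMG-CoA at the head of the mevalonate pathway, measured 112 CPM in neuron-like and 47.3 CPM in progenitor-like cells of the standard library. In the FLASH library it measured 118 and 50.8 CPM. The neuron-like level was thus above the progenitor-like level in both libraries, with log2 ratios of 1.25 (1.13 to 1.36) and 1.22 (1.12 to 1.32). Mvd, which decarboxylates mevalonate diphosphate to isopentenyl diphosphate, differed more, at 56.4 against 18.3 CPM and 56.6 against 16.8 CPM. Its log2 ratios were 1.62 (1.45 to 1.79) and 1.75 (1.59 to 1.92), and the intervals of the 2 libraries overlapped. Lss, the cyclase that forms lanosterol, measured 10.6 against 5.30 CPM and 11.3 against 5.34 CPM, log2 ratios of 1.003 (0.64 to 1.36) and 1.09 (0.76 to 1.42).

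Tm7sf2, a sterol C14 reductase, had the largest ratio of the members, from low levels of 7.47 against 2.27 CPM in the standard and 6.57 against 1.53 CPM in the FLASH library. Its log2 ratios were 1.71 (1.23 to 2.22) and 2.09 (1.57 to 2.64), and its counts are less certain because an exon of Vps51 lies over it on the same strand. Cyp51, the lanosterol demethylase and the sterol gene with the most UMIs, measured 109 against 64.1 CPM and 115 against 72.7 CPM. Its log2 ratios of 0.77 (0.66 to 0.88) and 0.66 (0.57 to 0.76) were smaller than those of Hmgcs1 with no overlap of intervals. At the low end of the group stood Mvk, Acat2, Idi1 and Ebp, the mevalonate kinase, the first thiolase, the isopentenyl diphosphate isomerase and the sterol isomerase, with mean log2 ratios of 0.11, 0.12, 0.13 and 0.14. These 4 are the genes of the group that were close to level between both classes.

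The regulators did not move together. Srebf2 measured 63.8 against 42.1 CPM in the standard and 59.3 against 40.5 CPM in the FLASH library, log2 ratios of 0.60 (0.46 to 0.74) and 0.55 (0.42 to 0.68), just under the 1.5-fold rule in the FLASH library. Srebf1 lay on the other side of 0, at 71.2 against 96.8 CPM and 72.3 against 105 CPM, log2 ratios of -0.44 (-0.56 to -0.33) and -0.53 (-0.64 to -0.43). As a class, neuron-like cells thus had the higher Srebf2 and the lower Srebf1 in each library, with no overlap of the 95% intervals between the genes. The lower Srebf1 came from neuron-like cluster 0, at 9.34 CPM in the standard and 11.9 CPM in the FLASH library. With their UMIs summed, the other neuron-like clusters were not under the progenitor-like level of Srebf1. Insig1, an SREBP target that also retains SREBP in the endoplasmic reticulum, was the 1 gene of the 5 that was called, at 45 against 26.7 CPM and 46.8 against 28.7 CPM. Scap, the escort protein of SREBP, gave -0.067 (-0.36 to 0.21) and -0.11 (-0.39 to 0.16).

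The fatty acid genes split by enzyme. Elovl6, which elongates C16 fatty acids, had the highest ratio at 87.4 against 55.1 CPM in the FLASH library, and its log2 ratio of 0.58 in the standard library lay just short of 1.5-fold. Fasn, the fatty acid synthase, measured 98.1 against 71.7 CPM and 103 against 73.8 CPM, log2 ratios of 0.45 and 0.48. Scd2, the main stearoyl-CoA desaturase of the developing brain, was lower in neuron-like cells as a class, at 90.4 against 106 CPM and 91.4 against 109 CPM, with log2 ratios of -0.22 (-0.33 to -0.12) and -0.25 (-0.35 to -0.16). The lower Scd2 also came from cluster 0, at 53.0 and 49.1 CPM. Together, the other neuron-like clusters were not under the progenitor-like level of Scd2. Of the genes of sterol movement, Npc2, the soluble lysosomal cholesterol carrier, was near level at 187 against 185 CPM and 189 against 178 CPM, and Npc1, its membrane partner, gave 0.45 (0.18 to 0.72) and 0.76 (0.51 to 1.01). Of 32 further pathway genes, 27 had enough UMIs, of which 2 were called higher and 2 lower. Abcg1, a sterol exporter driven by the liver X receptors, measured 4.84 against 0.681 CPM and 6.49 against 0.863 CPM, and Mylip, a liver X receptor target that degrades lipoprotein receptors, 0.679 against 2.88 CPM and 0.860 against 2.62 CPM.

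**Figure D1:**
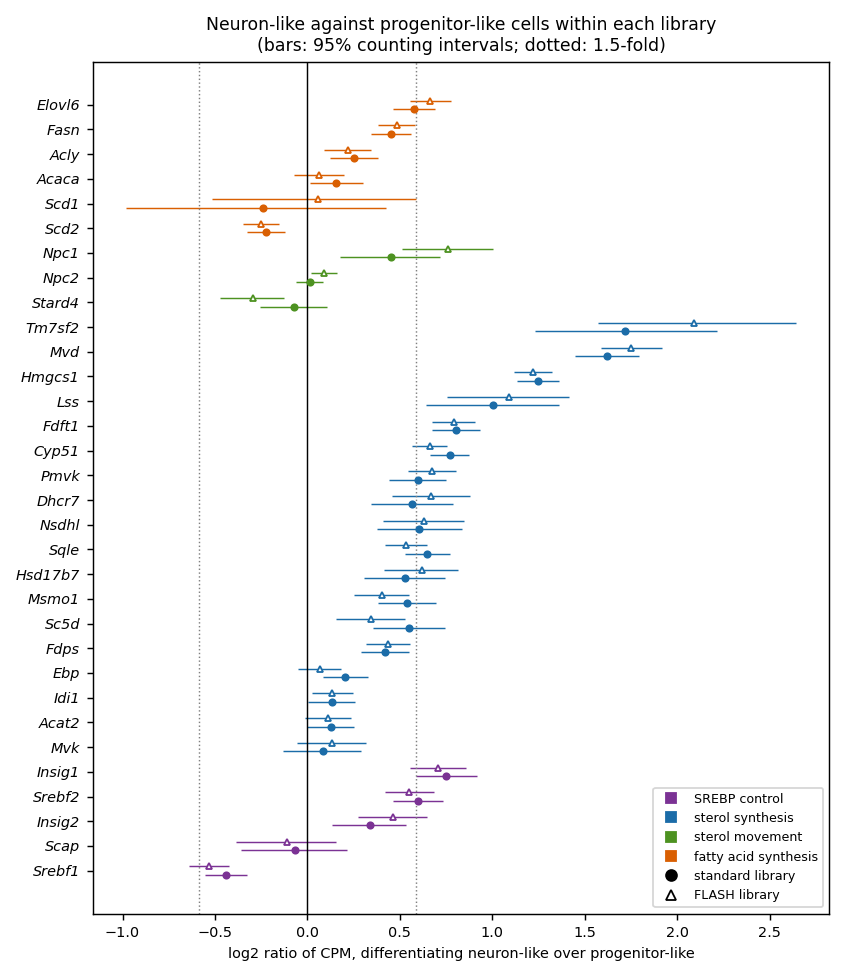
Log2 ratio of CPM in differentiating neuron-like over progenitor-like cells for the 32 members, with filled circles for the standard and open triangles for the FLASH library, bars for 95% counting intervals and dotted lines at 1.5-fold. All 18 sterol synthesis genes lie to the right of 0 in both libraries, from Mvk at the low end to Tm7sf2 at the high end, and Srebf1 and Scd2 lie to the left.

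Within the tumour lineage the sterol genes were highest in neuron-like cluster 0 and, among progenitor-like clusters, in cluster 8. Summed over the 18 genes, the level was 1109 CPM in the standard and 1136 CPM in the FLASH library in cluster 0, led by Neurod1, Grin2b and Cntn2. The other neuron-like clusters followed at 863 and 908 CPM (cluster 5, led by Stmn2 and Nnat) and 810 and 833 CPM (cluster 6, led by Cre and Ren1). Progenitor-like cluster 8, led by the S phase genes Hells, Ung and Cdc6, stood close to cluster 6, at 796 and 842 CPM. The clusters rich in G2 and M genes lay low, with 512 and 556 CPM in cluster 11 and 575 and 640 CPM in cluster 12. Progenitor-like cluster 2, led by Cre, Atoh1 and Hes1, held 568 and 612 CPM. Cluster 0 was the highest and cluster 11 the lowest in both libraries.

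Single members differed in how far they ranged. Mvd spanned 9.79 to 82.0 CPM over the 10 named tumour clusters of the standard library, an 8.37-fold range, and 9.62-fold in the FLASH library, lowest in cluster 11 and highest in cluster 0. Hmgcs1 spanned 39.5 to 149 CPM and 43.1 to 158 CPM between the same clusters. Srebf1 ran the other way, from 9.34 CPM in cluster 0 to 138 CPM in cluster 2 in the standard library and from 11.9 to 155 CPM in the FLASH library, ranges of 14.7-fold and 13.0-fold. Cluster 0, with the most sterol synthesis RNA, thus had the least Srebf1. It also had the most Srebf2, at 75.7 and 75.1 CPM. Idi1 and Acat2 peaked instead in cluster 8, at 98.9 and 114 CPM for Idi1 and 87.2 and 75.0 CPM for Acat2. The fatty acid genes had a flatter sum, highest in cluster 5 at 429 CPM in both libraries and lowest in cluster 11 at 266 and 278 CPM. In cluster 0 their sum was 336 and 339 CPM, where Scd2 was at its lowest (53.0 and 49.1 CPM).

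**Figure D2:**
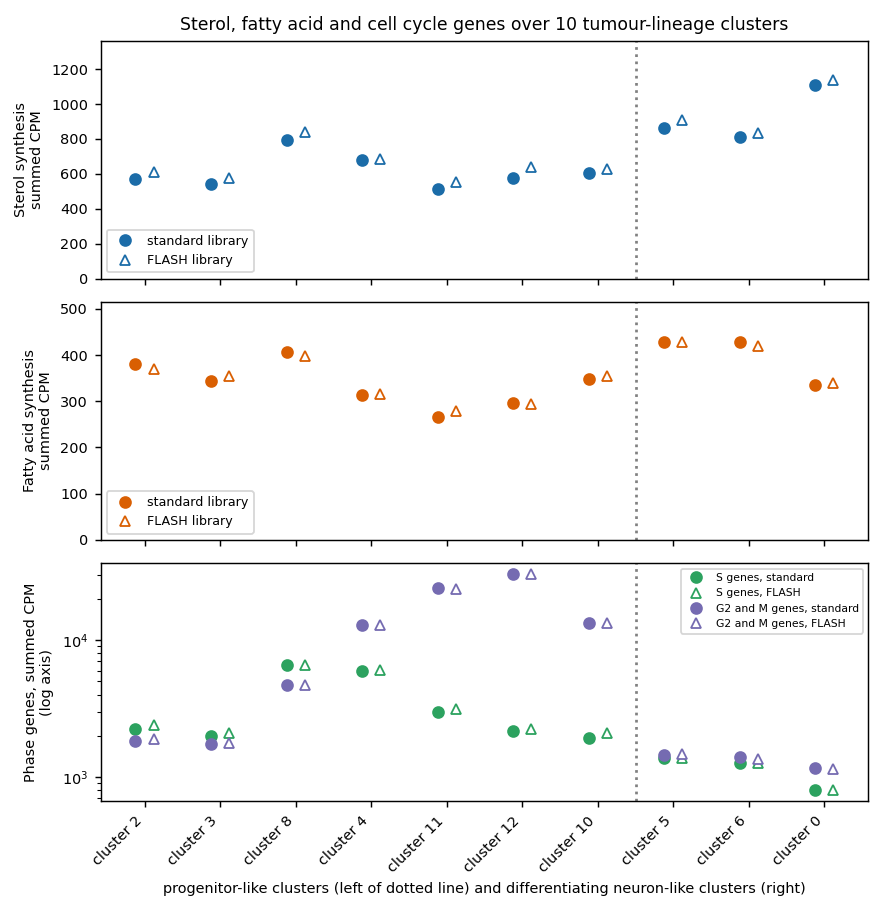
Summed CPM of the 18 sterol synthesis genes (top), of the 6 fatty acid synthesis genes (middle) and of the S phase and the G2 and M phase genes (bottom, log axis) in 10 tumour-lineage clusters, filled circles for the standard and open triangles for the FLASH library. The sterol synthesis sum is highest in cluster 0 (1109 and 1136 CPM), and the fatty acid synthesis sum is highest in cluster 5 (429 CPM in both).

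Over the 20 sums of 10 clusters in 2 libraries, sterol synthesis genes followed each other, with a median Pearson r of 0.63 over 153 pairs, 139 of them above 0. Pairs of fatty acid genes had a median of 0.47 (15 pairs), and pairs of 1 sterol and 1 fatty acid gene 0.37 (108 pairs). These values are across clusters that share lineage, library and depth and are given as a description. Cluster 0 was lowest for Srebf1 and Scd2 and highest for Srebf2 in both libraries, and no r without it is given. Srebf2 had a median r of 0.70 with the 18 sterol genes, with 0.89 for Hmgcs1, and Srebf1 had -0.34. Scd2 went with Srebf1 (r of 0.90) and against Srebf2 (-0.67), whereas Fasn had a median r of 0.75 with the sterol genes and -0.058 with Srebf1. Fasn and Scd2, both fatty acid genes, thus lay on different sides. By the same measure Mvk (-0.026) and Ebp (0.19) were the sterol genes least like the others.

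**Figure D3:**
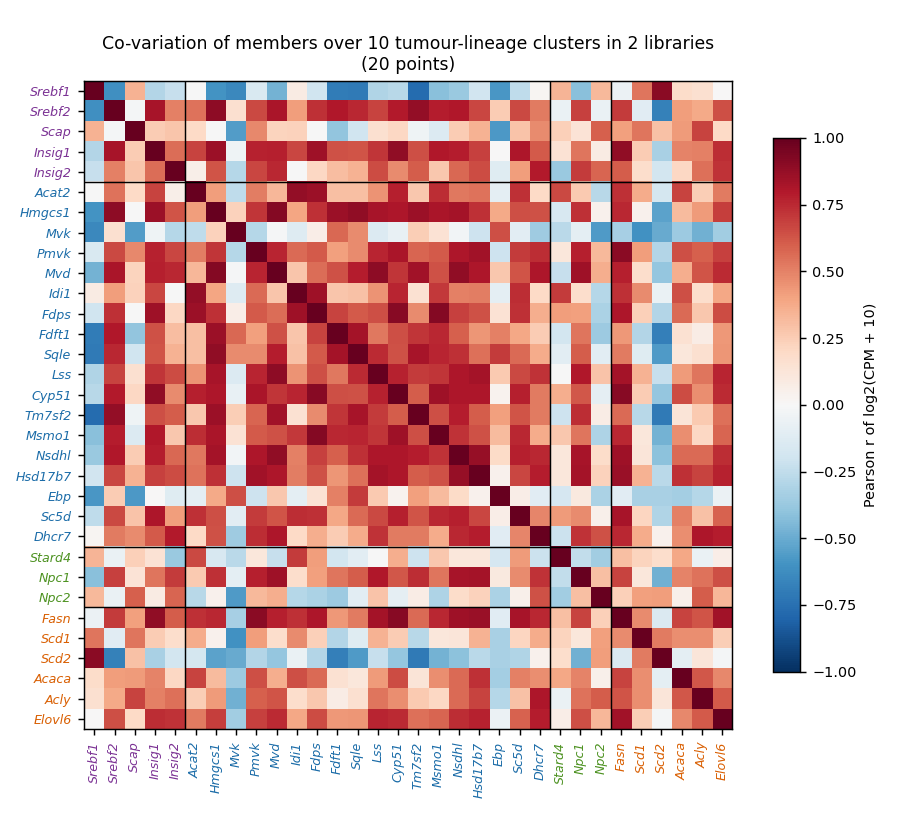
Pearson r of log2(CPM + 10) between members over 10 tumour-lineage clusters in 2 libraries (20 points), red for positive and blue for negative, with lines between SREBP control, sterol synthesis, sterol movement and fatty acid synthesis. The sterol block is mostly red with a median of 0.63, and the rows of Srebf1 and Scd2 are alike (r of 0.90) and mostly blue against it.

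Oligodendrocyte lineage cells, the glia that form myelin and their precursors, had the highest sterol and fatty acid levels of the classes compared, with 1509 and 2013 CPM summed over the sterol genes against 713 and 741 CPM in the tumour lineage. Against tumour-lineage cells of the same library 17 of 18 sterol genes had the higher level in both libraries, the exception being Sqle in the standard library, with a median log2 ratio of 1.24 (1.10 standard, 1.36 FLASH) against -0.033 over 12091 genes. Of the 18, 14 were called higher and 0 lower, where 22.6% of all genes were called higher and 20.9% lower. The UMI minimum covers both classes together, and tumour-lineage cells held most of the UMIs. The 14 thus include Tm7sf2 with 10 and 9 UMIs and Lss with 13 and 40 UMIs in the oligodendrocyte lineage. Of the 6 fatty acid genes 3 were called higher (Scd1, Scd2 and Elovl6), with a median of 0.75. Precursor-like cells were 45 of the 107 cells in the standard and 89 of the 154 in the FLASH library, so the class is a different mix in each. Hmgcs1 was at 196 and 229 CPM in precursor-like against 340 and 630 CPM in oligodendrocyte-like cells. Scd2 was at 306 and 286 against 942 and 947 CPM. Both were above the tumour lineage in precursor-like cells. Fdps (22.1 CPM), Fdft1 (40.6 CPM), Sqle (55.4 CPM) and Ebp (51.7 CPM) were not, in the standard library and from few UMIs. The other sterol genes of precursor-like cells are not listed here. Astrocyte-like cells, 6 in the standard and 15 in the FLASH library, were too few to be compared. Their Scd2 was above the oligodendrocyte lineage in both libraries, at 3124 (2525 to 3823) and 1703 (1429 to 2015) CPM. Their Hmgcs1, at 632 and 163 CPM, was above it in the standard library only.

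Hmgcs1 measured 289 CPM in oligodendrocyte lineage against 67.4 CPM in tumour-lineage cells of the standard library, and 415 against 70.4 CPM in the FLASH library. The log2 ratios were 2.10 (1.90 to 2.30) and 2.56 (2.41 to 2.71), and the FLASH ratio was the higher one. Cyp51 measured 147 against 78.0 CPM and 209 against 84.9 CPM, and Msmo1, the sterol C4 methyl oxidase, 119 against 36.1 CPM and 171 against 36.4 CPM. Both were higher in oligodendrocyte lineage cells in each library. Sqle, the squalene epoxidase, is an exception, at 58.4 against 58.9 CPM in the standard library and 104 against 60.9 CPM in the FLASH library. Acat2 and Ebp were not called either, nor was Fdft1, the squalene synthase, at 59.7 against 51.7 CPM and 69.2 against 55.4 CPM, where the interval included 0 in both libraries.

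Scd2 measured 718 against 101 CPM and 592 against 104 CPM, log2 ratios of 2.83 (2.70 to 2.96) and 2.51 (2.38 to 2.64). Scd1, the other delta-9 desaturase, measured 22.0 against 2.41 CPM and 13.6 against 3.13 CPM, from few UMIs. Scd1 and Scd2 shared none of the 31-base words of their transcript ends, so their reads can be told apart. Npc1 measured 99.9 against 12.8 CPM and 68.2 against 13.0 CPM, and Npc2 361 against 185 CPM and 303 against 181 CPM, both higher in the oligodendrocyte lineage. Srebf1 was lower there, at 23.3 against 88.9 CPM and 18.9 against 95.2 CPM, as was Stard4, a cytosolic sterol carrier, at 10.4 against 32.3 CPM and 18.9 against 32.7 CPM. Scap was called higher, at 35.0 against 12.8 CPM and 28.3 against 13.0 CPM. Of the 27 further pathway genes with enough UMIs 16 were called higher and 1 lower. Me1, malic enzyme, which supplies NADPH, measured 48.0 against 2.67 CPM and 49.3 against 2.40 CPM, and Abcg1 23.3 against 1.96 CPM and 33.6 against 2.50 CPM.

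With the 5 cells richest in each gene left out of each class and library, the sterol median of this contrast was lowered from 1.24 to 0.39 and the fatty acid median from 0.75 to 0.41. Tm7sf2 changed sign, from a mean log2 ratio of 1.77 to -0.39, with only 10 and 9 UMIs in the oligodendrocyte lineage, while Hmgcs1 was at 1.69 and Scd2 at 2.40. This choice of cells lowers the ratio by construction, since it takes a larger share of the 107 and 154 oligodendrocyte lineage cells than of the tumour-lineage cells and takes those highest in the gene.

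Myeloid cells (microglia-like, macrophage-like and monocyte-like) had low RNA of most sterol synthesis genes and high Npc1 and Npc2 RNA. Of the 18 sterol genes 14 were called lower than in tumour-lineage cells and 0 higher, where 50% of all genes were called lower and 17.9% higher. The UMI minimum covers the classes compared, and tumour-lineage cells held 38210627 and 44078223 UMIs against 2103937 and 2214648 in myeloid cells. Genes seen almost only in tumour-lineage cells thus pass it more easily than genes seen only in myeloid cells. How far this adds to the calls of lower was not tested. The median log2 ratio was -1.69 against -0.76 over the 12502 genes that passed, so these genes were lower per UMI too. With ratios centred on the median of all genes, the sterol median was -0.92 and the fatty acid median -0.33, from -1.09 uncentred. With the 5 cells richest in each gene left out, which lowers the smaller class by construction, the fatty acid median was -2.34. Of the 6 fatty acid genes 3 were called lower (Fasn, Acaca and Elovl6).

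Sqle measured 7.60 against 58.9 CPM in the standard and 4.52 against 60.9 CPM in the FLASH library, log2 ratios of -2.91 (-3.76 to -2.25) and -3.68 (-4.82 to -2.87). Elovl6 measured 8.56 against 69.5 CPM and 5.42 against 64.5 CPM. Fdps, the farnesyl diphosphate synthase, measured 4.28 against 55.0 CPM and 13.5 against 56.7 CPM. All 3 were lower in myeloid cells in each library, and Fdps is less certain because an exon of another gene (Gm43738) lies over it on the same strand. The 12 granule progenitor markers had a median of 11.02% and 10.6% of their tumour level in myeloid cells, taken here as a background level. The 12 granule neuron markers had a median of 7.75% and 8.55%. The progenitor list holds Mki67 and Top2a, which mark dividing cells of any type, and its highest marker was at 29.2% and 30.9%. Whether free tumour RNA makes this background was not tested. The sterol genes had a median of 33.5% and 35.5%. Sqle (7.42%) and Elovl6 (8.41%) in the FLASH library were under both marker medians and are read as background. Fdps in the standard library (7.78%) was under the progenitor marker median and just above the neuron marker median, and is read as near background. Ebp was an exception, at 72.2 against 63.5 CPM and 80.4 against 62.5 CPM, and Scd2 was near level at 101 against 101 CPM and 126 against 104 CPM.

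Npc2 measured 1236 against 185 CPM and 1264 against 181 CPM, and Npc1 109 against 12.8 CPM and 101 against 13.0 CPM, both higher in myeloid cells with no overlap of intervals. Srebf2 was lower, at 11.4 against 48.8 CPM and 15.4 against 45.9 CPM, and Srebf1 was lower, at 29.5 against 88.9 CPM and 35.7 against 95.2 CPM. Of 28 further pathway genes with enough UMIs 9 were called higher and 10 lower. Abca1, the cholesterol efflux pump, measured 537 against 7.30 CPM and 554 against 6.87 CPM, and Abcg1 231 against 1.96 CPM and 233 against 2.50 CPM. The genes of sterol efflux and of sterol synthesis thus stood at different ends in these cells.

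**Figure D4:**
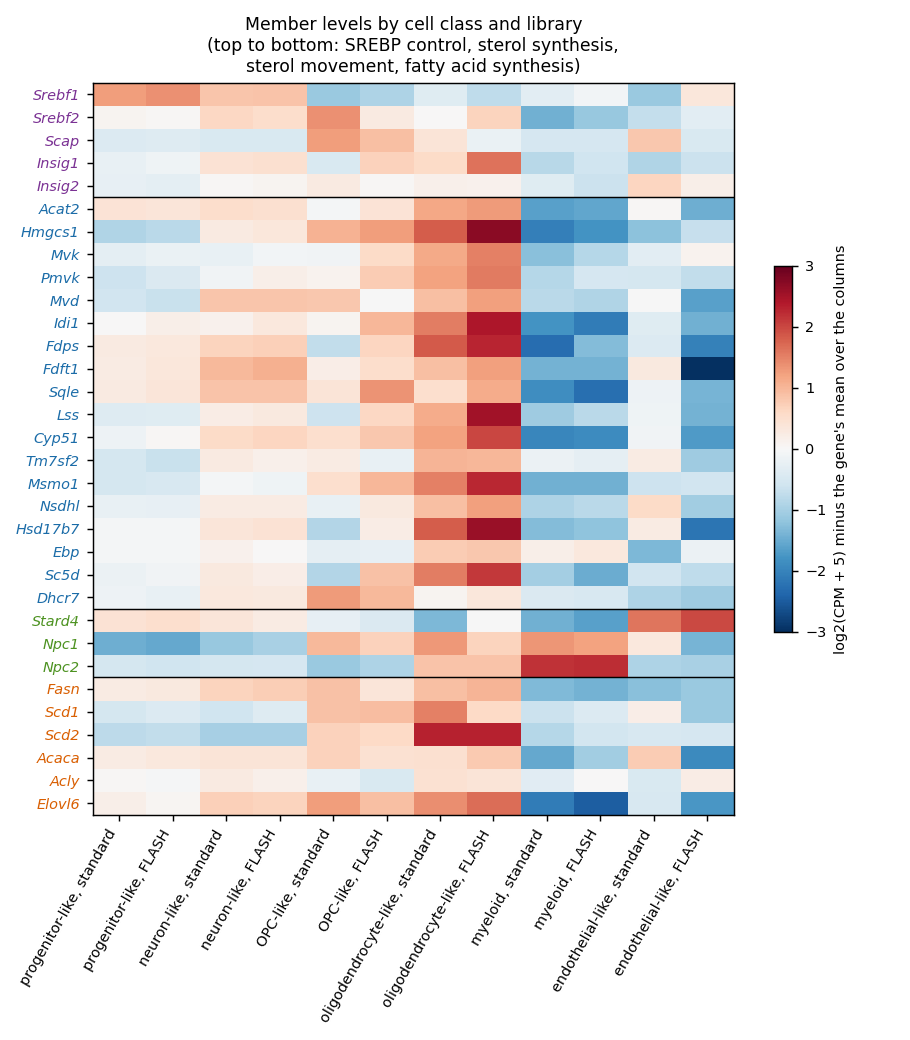
Level of each member as log2(CPM + 5) minus the gene's mean over the 12 columns (6 classes in 2 libraries), red for above and blue for below, with OPC for oligodendrocyte precursor. Oligodendrocyte-like columns are red for most sterol genes, myeloid columns are blue for them and red for Npc1 and Npc2, and the endothelial-like columns rest on 30 and 47 cells.

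Between the FLASH and the standard library the members were close to level in the tumour lineage. None of the 32 was called, where 0.773% of 11900 genes were called in either direction (0.294% higher, 0.479% lower). The sterol median was 0.024, the fatty acid median 0.041 and the median of all genes 0.0099, with 90% of all genes between -0.23 and 0.23. Intervals lay above 0 for 5 members (Srebf1, Pmvk, Idi1, Fdft1 and Cyp51) and below 0 for 3 (Tm7sf2, Acly and Elovl6). The largest differences were in members of few UMIs. Scd1 measured 2.41 CPM in the standard and 3.13 CPM in the FLASH library, a log2 ratio of 0.38 (-0.012 to 0.78), and Tm7sf2 3.87 and 2.99 CPM, a ratio of -0.37 (-0.72 to -0.023). Pmvk, the phosphomevalonate kinase, went from 38.8 to 45.7 CPM, 0.24 (0.14 to 0.34), and Idi1 from 61.1 to 68.9 CPM, 0.17 (0.10 to 0.25). With 1 library each, the spread between tumours and the treatment cannot be told apart.

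None of the members was called in progenitor-like cells, where 1.11% of genes were (0.466% higher, 0.642% lower). None was called in neuron-like cells, where 0.631% were (0.24% higher, 0.391% lower). In myeloid cells, where 7 of the 32 members had enough UMIs, none was called, against 2.7% of genes (1.39% higher, 1.31% lower). This holds for the pooled class. In microglia-like cells alone Scd2 passed the 1.5-fold rule, at 82.7 and 140 CPM, a log2 ratio of 0.76 (0.21 to 1.31). In macrophage-like cells Scd2 was at 120 and 124 CPM, a ratio of 0.054 (-0.27 to 0.38). The share of all genes called is not given for these 2 classes. Hmgcs1 was at 47.3 and 50.8 CPM in progenitor-like cells and 112 and 118 CPM in neuron-like cells, so the class difference of each library was larger than the difference between libraries. Thinned to 2000 UMIs per cell, 8.25% of standard and 9.07% of FLASH progenitor-like cells had a UMI of Hmgcs1, against 18.5% and 18.2% of neuron-like cells, and 27.1%, 26.7%, 38.1% and 35.1% without thinning. In myeloid cells 2.77% and 6.04% of thinned cells had one (9.54% and 13.8% without thinning, at a median depth of 6539.5 and 6087 UMIs).

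In the whole oligodendrocyte lineage 3 of the 21 members with enough UMIs were called higher in the FLASH library (Insig1, Idi1 and Sqle) and 0 lower, where 7.86% of 3144 genes were called (4.45% higher, 3.4% lower). As precursor-like cells were the larger share of the FLASH library, the oligodendrocyte-like cells were compared by themselves. These were 62 standard and 65 FLASH cells with a median of 3780 and 1777 UMIs. The sterol median was 0.43, 17 of 18 genes were above 0, and of the 8 with enough UMIs 4 were called higher in the FLASH library and 0 lower, where 6.05% of 1654 genes were called (2.78% higher, 3.26% lower). The 17 include genes under 100 UMIs, such as Lss with 12 and 32 and Dhcr7 with 10 and 11 UMIs. No median over all genes is given for this class, so the sterol median and the 17 of 18 stand without that background. The fatty acid median was 0.07 and none of the 3 with enough UMIs was called. Whether sterol and fatty acid genes differ from each other here was not tested.

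Hmgcs1 measured 340 CPM (291 to 395) in the standard and 630 CPM (559 to 709) in the FLASH library, a log2 ratio of 0.89 (0.61 to 1.18). Idi1 measured 180 (145 to 221) and 334 (283 to 393) CPM, a ratio of 0.89 (0.51 to 1.29). Cyp51 measured 170 (136 to 210) and 301 (252 to 356) CPM, a ratio of 0.82 (0.42 to 1.23). The FLASH level was the higher one for each, and the counting intervals did not overlap. Msmo1 measured 146 (114 to 184) and 251 (206 to 302) CPM, again without overlap. Scd2 was level at 942 (859 to 1031) and 947 (858 to 1042) CPM, and Ebp at 112 and 115 CPM. Of the members under 100 UMIs, Insig1 measured 49.98 and 108 CPM and Lss 24.0 and 72.3 CPM, whereas Npc1 was lower in the FLASH library, at 108 and 67.8 CPM, and Scd1 measured 26.0 and 11.3 CPM. Acsl3, an acyl-CoA synthetase, was the 1 gene called of 5 further pathway genes with enough UMIs, with a log2 ratio of 0.75.

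Without thinning, Hmgcs1 was seen in 37 of 62 standard and 36 of 65 FLASH cells (59.7% and 55.4%), and Cyp51 in 27 and 25 cells. Thinned to 2000 UMIs, Hmgcs1 was seen in 32.5% (18.6 to 49.1, exact binomial) of the 40 standard and 50% (31.3 to 68.7) of the 30 FLASH cells deep enough, with 22 and 35 cells left out. The single richest cell held 26.5% and 22.9% of the Hmgcs1 UMIs, and with the 5 richest cells of each library left out Hmgcs1 was at 162 and 350 CPM. By cluster, Hmgcs1 went from 242 (139 to 393) to 526 (350 to 760) CPM in cluster 22 and from 411 (324 to 514) to 1097 (937 to 1278) CPM in cluster 26. It was 280 and 302 CPM in cluster 29 and 349 and 450 CPM in cluster 33. The intervals of the libraries overlapped in clusters 22, 29 and 33 and not in cluster 26, whose 18 and 15 cells held 76 of the 170 standard and 166 of the 279 FLASH UMIs of Hmgcs1.

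Several features of the cells moved with this result. The median depth was lower in the FLASH library, 1 FLASH cell held at least 50 haemoglobin UMIs (8686 CPM of haemoglobin over the class, 59.9 CPM without that cell), and microglia markers summed to 298 CPM in the standard and 104 CPM in the FLASH library. Their part in the result was not tested, except that without the haemoglobin-rich cell the sterol median was 0.40. With each cell weighted equally the sterol median was 0.30, and Idi1 and Msmo1 fell to 0.27 and 0.34. With at least 1000 genes per cell, at most 5% mitochondrial UMIs or cells thinned to 2000 UMIs the class had under 50 cells in a library and gave no ratio.

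**Figure D5:**
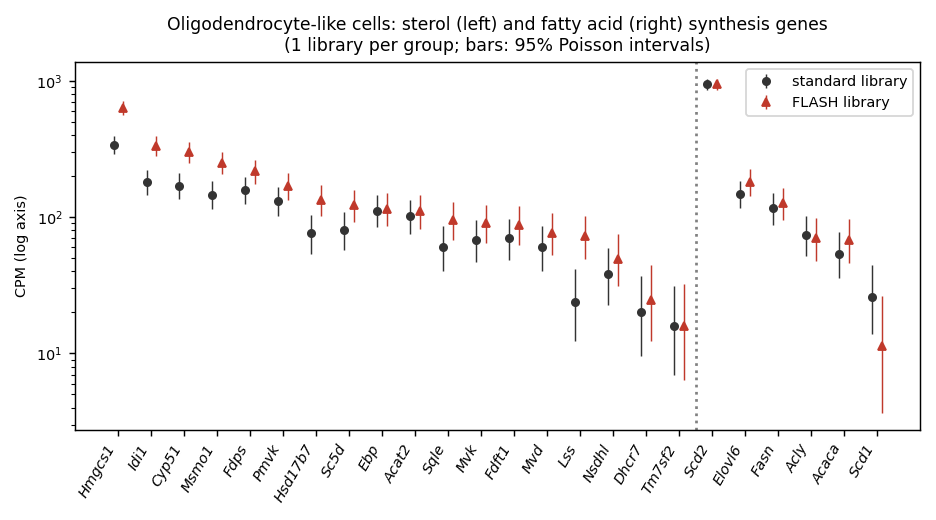
CPM (log axis) of the 18 sterol and 6 fatty acid synthesis genes in oligodendrocyte-like cells of the standard library (62 cells, dark circles) and the FLASH library (65 cells, red triangles), with 95% Poisson intervals. Hmgcs1 (340 and 630 CPM), Idi1, Cyp51, Msmo1 and Lss stand apart without overlap, and Scd2 (942 and 947 CPM) does not.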

How the data were processed

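The data are 10x Genomics 3′ (V3) single-cell libraries. The authors deposited raw UMI counts per gene and barcode. The file headers name Cell Ranger 6.1.2, and the submitters' processing notes name mm10. Tumour tissue was dissociated with collagenase and DNase, per the labels' protocols. The deposited gene identifiers, symbols and barcodes are labels and not values. Cells with at least 500 genes and at most 10% mitochondrial UMIs were kept. As scrublet's own threshold marked 1 and 0 cells, the top-scoring 573 (6.77%) and 860 (8.30%) were removed. Clusters (scanpy 1.11.5, leidenalg 0.10.2, resolution 1.0, a second split of the non-granule cells at 1.5) used 2000 variable genes without 64 pathway genes. Naming limits were set after the data were seen, among them that a granule lineage cluster is named only at a depth of at least 0.5 of its library's median. UMIs were summed per class and library to CPM, with a prior count of 0.5 in log2 ratios, exact Poisson intervals for levels and exact conditional binomial intervals for ratios. The ratio code was tested on simulated data. The members and lists were chosen with earlier results of these data known. Genes named are the 4 members of largest ratio and the member with most UMIs of each role per contrast, with the 2 further pathway genes of largest ratio. The other members named were chosen after their values were seen. Mm10 exons of other genes overlap 4 members on the same strand and 9 on the opposite strand, which makes their counts less certain. 46 barcodes are in both files.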

Additional observations from a re-analysis of the deposited data

Results flagged for a closer look

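Cluster 9, which has no cell type name and enters no comparison, held more SREBP control and more fatty acid synthesis RNA than any named tumour-lineage cluster in either library. It had 508 standard and 341 FLASH cells and was led by Gm26917, Miat and Kcnq1ot1, which are long non-coding RNAs. The 5 SREBP control genes summed to 358 CPM in the standard and 356 CPM in the FLASH library, and the 6 fatty acid synthesis genes to 745 and 589 CPM, the latter against at most 429 CPM in a named tumour-lineage cluster. The depth of its cells was 0.41 of the median of their libraries.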

How the results depend on the processing

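Of 4256 values of single members under the alternatives, 4028 stayed within the counting interval of the reported value, 227 lay outside it and 1 reversed. The one reversed was Tm7sf2 in oligodendrocyte lineage over tumour-lineage cells, at -0.39 without the 5 richest cells. Leaving out those 5 cells, which lowers the smaller class by construction, also moved the oligodendrocyte lineage medians to 0.39 (sterol) and 0.41 (fatty acid) and the myeloid fatty acid median to -2.34, and weighting cells equally moved the oligodendrocyte lineage medians to 0.98 and 0.50. Median-ratio size factors moved the myeloid medians to -0.92 (sterol) and -0.33 (fatty acid), as they centre on all genes. Thinning to 2000 UMIs moved the fatty acid median of FLASH over standard tumour-lineage cells from 0.041 to -0.083. The number of members called between libraries, counted over progenitor-like, neuron-like, oligodendrocyte-like and myeloid cells, was 4, and 0 with at least 1000 genes, 0 with at most 5% mitochondrial UMIs and 2 when thinned (Npc1 and Scd2 in myeloid cells), since oligodendrocyte-like cells were then under 50. Naming the low-depth granule clusters, an alternative added after seeing the data, moved the sterol median of neuron-like over progenitor-like cells from 0.60 to 0.47, and the cause was not tested. Over the 14 alternatives that gave one, the sterol median of oligodendrocyte-like cells lay between 0.30 and 0.72. No paired analysis was possible because each group is 1 library.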
